A study of Mus musculus with 6 samples.

Results

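Dusp4, Dusp5, Dusp6, Spry1, Spry2, Spry4, Spred1, Spred2, Etv4 and Etv5 were followed in RNA of MMK-1-treated organoids of the mouse small intestine. They were chosen by name, as inhibitors of ERK signaling and 2 ETS transcription factors, all genes that this kinase is known to induce, and all 10 were present among the 21397 genes of the table. The organoids were grown from ileal crypts of Fpr2f/f mice, so both groups carried the floxed Fpr2 allele and no Cre is named in their labels. They were kept for 5 days either in 1 μmol/L MMK-1, a peptide that activates the receptor FPR2, or in 0.1% DMSO as vehicle (Control). Each group had 3 libraries of organoids pooled from 3 mice each, so the p-values below measure the spread between pooled cultures. One label of the treated samples reads 1 mM, whereas their protocol text gives the micromolar dose. The mice were on the C57BL/6J background and between 8 and 12 weeks old.

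ERK is the last kinase of the RAS, RAF and MEK cascade that EGF and other growth factors switch on in crypt stem and progenitor cells. Its activity induces transcription of its own inhibitors, so that their mRNA is often read as a trace of recent ERK signaling. The dual-specificity phosphatases DUSP4, DUSP5 and DUSP6 remove the activating phosphates from ERK; DUSP4 and DUSP5 act in the nucleus and DUSP6 in the cytoplasm. Sprouty and SPRED proteins act further upstream, on receptor signaling to RAS and on RAS and RAF. ETV4 and ETV5 are PEA3 factors of the ETS family, which carry growth factor signals to the genome.

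Upstream sequences of a gene that fell, a gene that was not called and a gene that rose are shown. The genes were picked by these outcomes. Each is the 250 bases before the start site in RefSeq, build GRCm38.p6, written 5′ to 3′ on the plus strand, on which all 3 genes lie. The windows are chr19:53528895-53529144 for Dusp5, chr10:99262981-99263230 for Dusp6 and chr2:117120821-117121070 for Spred1. The gene start in the GENCODE annotation differs for Dusp5 (53529109, inside the window) and for Spred1 (117121374, beyond the end of the window). Capitals mark matches to the CArG box, the binding element of serum response factor.
Dusp5: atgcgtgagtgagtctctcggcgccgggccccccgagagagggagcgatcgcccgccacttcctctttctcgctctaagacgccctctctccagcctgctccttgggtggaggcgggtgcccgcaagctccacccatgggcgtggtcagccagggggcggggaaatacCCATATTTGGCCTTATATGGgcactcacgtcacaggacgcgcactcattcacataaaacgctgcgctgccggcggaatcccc
Dusp6: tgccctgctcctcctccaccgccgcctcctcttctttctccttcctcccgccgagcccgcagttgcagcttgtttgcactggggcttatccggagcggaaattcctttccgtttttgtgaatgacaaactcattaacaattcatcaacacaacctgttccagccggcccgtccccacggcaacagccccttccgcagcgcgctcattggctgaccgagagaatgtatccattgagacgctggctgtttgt
Spred1: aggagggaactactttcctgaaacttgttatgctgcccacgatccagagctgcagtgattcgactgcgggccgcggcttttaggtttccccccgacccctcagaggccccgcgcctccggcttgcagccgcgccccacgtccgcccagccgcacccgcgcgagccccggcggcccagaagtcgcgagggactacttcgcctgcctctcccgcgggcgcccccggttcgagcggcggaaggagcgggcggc

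The upstream window of Dusp5 held 2 CArG boxes side by side without overlap, CCATATTTGG at 73 to 82 bases and CCTTATATGG at 63 to 72 bases before the start. A CArG box on either strand was present in 1.47% of 32851 RefSeq windows of this length, and in none of the windows of Dusp6, Spry1, Spry2, Spred1, Spred2 or Etv5. This search was added after the sequences had been seen, and a link between a motif and the direction of change was not tested. The AP-1 element TGANTCA was present in 6.75% of all windows, the ETS element CCGGAAGT in 2.88% and the CRE element TGACGTCA in 1.55%, each searched on both strands. None of these 3 was found in the windows of the 7 matched members, of which Etv5 has a pair of start sites. Dusp4, Etv4 and Spry4 were not matched. GC content of the printed windows was 64.0% for Dusp5, 56.4% for Dusp6 and 70.8% for Spred1.

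The organoid label was checked against epithelial genes. All 8 listed epithelial markers passed the expression filter, led by Krt19, Krt8 and Vil1, while the summed level of 5 fibroblast markers was at most 0.147 FPKM in any library. FPKM, the unit of the deposited table, scales fragments by the gene's length and by the library's sum. Totals were 35512739 to 37537463 fragments. MMK-1 replicate 3 stood apart from the other MMK-1 libraries, with a chi-square per degree of freedom (near 1 for counting noise alone) of 36.6 against replicate 1 and 31.3 against replicate 2, whereas replicates 1 and 2 gave 3.58 and pairs of control libraries at most 4.97.

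The inhibitors changed in different directions under MMK-1. Among the 8 members that passed a filter of a mean of 1 FPKM, 5 were upregulated (Dusp4, Spry1, Spred1, Etv4 and Etv5), 1 was downregulated (Dusp5) and 2 were not called (Dusp6 and Spry2) with adjusted p of 0.05 or less in limma on log2(FPKM + 1). In the same test 73.2% of all 10551 genes were called, 48.5% higher and 24.7% lower, so that a call in itself was common. Counts over the 8 members are a description, since the control means of Etv4 and Etv5 were under 1 FPKM and these genes passed the filter through the MMK-1 group. Dusp4, Etv4 and Spred1 reached a fold change of at least 2 upward, as did 3.39% of all genes tested. Over all genes the log2 fold change had a median of 0.13. It was 0.0061 after median-ratio scaling of the libraries, a shift of -0.13, and calls over all genes then split into 3792 higher and 3828 lower instead of 5118 and 2606. The calls of the members by adjusted p were the same under this scaling, while those at a fold change of 2 dropped from 3 to 2. Without MMK-1 replicate 3, the test again gave 5 members higher and 1 lower. In bulk RNA, fewer cells of a type and less RNA per cell cannot be told apart, which applies to every difference given here.

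**Figure D1:**
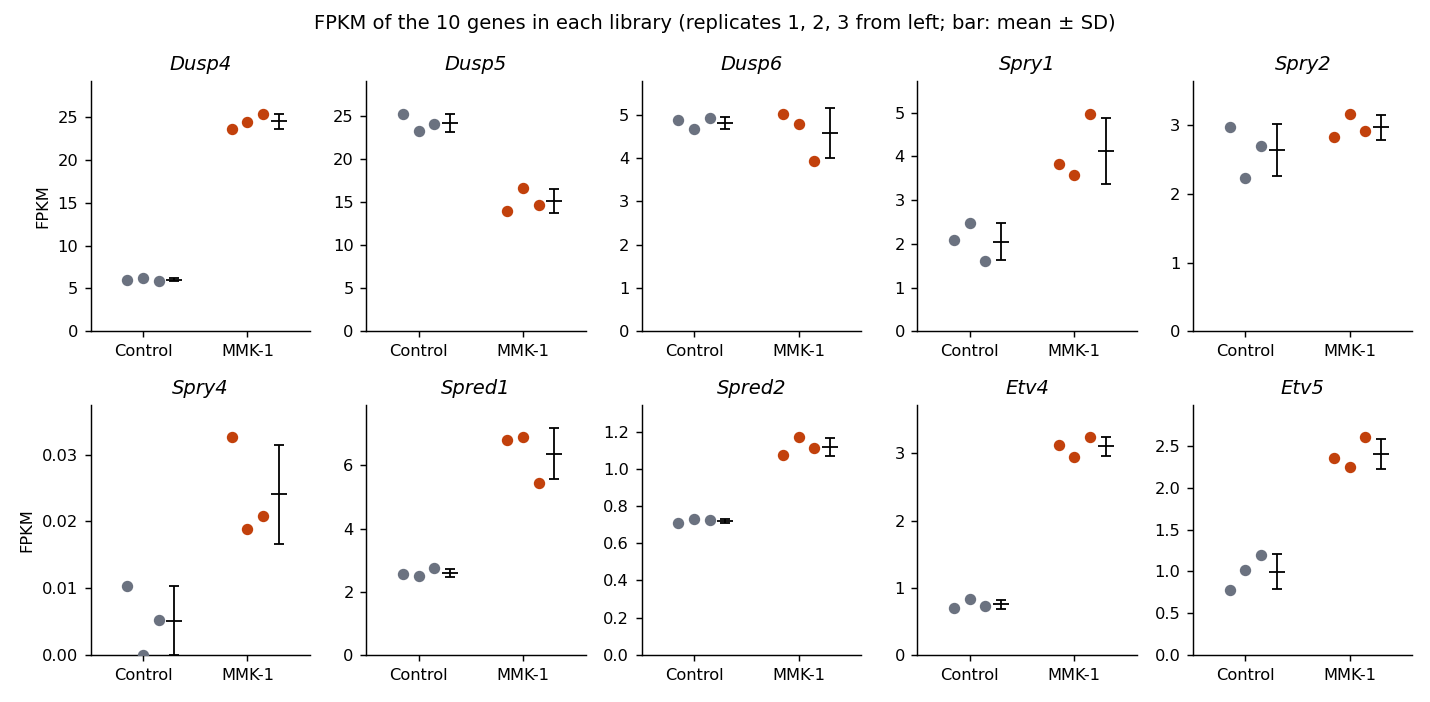
FPKM (vertical axes from 0, each with its own scale) of the 10 genes in the 3 Control (grey) and 3 MMK-1 (orange) libraries, with the mean and SD beside each group. The groups are separate for all genes but Dusp6 and Spry2, and Dusp5 is the gene whose MMK-1 libraries all lie below the controls.

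Dusp4, the nuclear phosphatase with activity toward ERK, JNK and p38, had the largest change of the 8 tested members on the log2(FPKM + 1) scale (chr8:34807297-34819894, plus strand; GENCODE coordinates on GRCm38, as for all genes below). Its level was 5.96, 6.20 and 5.92 FPKM in Control 1, 2 and 3, and 23.7, 24.5 and 25.4 FPKM in MMK-1 1, 2 and 3. The values of each group lay close together and did not overlap between groups, a separation that 76.8% of all genes tested showed. These levels rested on 1297 to 1363 fragments per control library and 4928 to 5533 per MMK-1 library. The log2 fold change was 1.86 (SE 0.0455, 95% CI 1.76 to 1.97; limma adjusted p = 7.8e-09), rank 33 from the largest rise among 10551 genes. On the linear scale the mean was 4.07-fold higher, slightly less than for Etv4. The fold change is computed after adding 1 FPKM and therefore understates changes of genes of low level.

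Dusp5, the nuclear phosphatase specific for ERK, moved the other way (chr19:53529109-53542431, plus strand). Its level was 25.3, 23.3 and 24.1 FPKM under vehicle and 14.0, 16.7 and 14.7 FPKM under MMK-1. All MMK-1 libraries were below all controls. Limma gave a log2 fold change of -0.65 (SE 0.0650, 95% CI -0.80 to -0.50; limma adjusted p = 2.6e-05), and the mean fell to 0.624 of the control mean. Dusp5 was thus called lower without reaching a fold change of 2. It remained lower by between -0.79 and -0.56 on the log2 scale under each of 18 alternative settings.

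Dusp6, the cytoplasmic phosphatase of ERK and a widely used readout of its activity, was not called (chr10:99263231-99267489, plus strand). It had 4.88, 4.67 and 4.92 FPKM under vehicle and 5.03, 4.80 and 3.93 FPKM under MMK-1. The groups overlapped, and MMK-1 replicate 3 was the lowest of the 6 libraries and MMK-1 replicate 1 the highest. The change on the log2 scale was -0.06 (SE 0.0767, limma adjusted p = 0.47), and its 95% CI of -0.24 to 0.11 limits any change to well under the fold change of 2 used for calls. Without MMK-1 replicate 3 the value was 0.02. With 469 to 591 fragments per library, the SD of the MMK-1 group was 2.92 times that from counting alone.

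The make-up of the summed mRNA of these 3 phosphatase genes differed accordingly. Other phosphatase genes given below, such as Dusp16 and Dusp3, are not part of this sum. Dusp4, Dusp5 and Dusp6 together summed to 35.1 ± 1.00 FPKM (SD, n = 3) under vehicle and 44.3 ± 1.62 FPKM (SD, n = 3) under MMK-1, a ratio of 1.26. Dusp5 made up 69.1% ± 0.917 of this sum under vehicle and 34.1% ± 1.84 under MMK-1. Dusp4 made up 17.2% ± 0.858 under vehicle and 55.5% ± 2.19 under MMK-1, and Dusp6 13.7% ± 0.294 and 10.4% ± 1.43. Both the sum and the shares depend on the gene lengths behind the FPKM. The length of Dusp4 implied by the values was 5857 bases against 2740 bases of exons in GENCODE. Per GENCODE exon length, the sum was 35.6 ± 0.621 under vehicle and 68.3 ± 1.90 under MMK-1, a ratio of 1.92, and the share of Dusp4 was 36.2% ± 1.37 and 76.8% ± 1.62 (SD, n = 3 each). By FPKM, Dusp5 was the most abundant of the 3 in every control library and Dusp4 in every MMK-1 library. A ratio of 2 genes within a library does not depend on the scaling between libraries, and its difference between groups does not depend on gene length. The Dusp4 to Dusp5 ratio lay between 0.236 and 0.266 under vehicle and between 1.47 and 1.73 under MMK-1, a 6.54-fold difference of the geometric means. The Dusp4 to Dusp6 ratio rose from 1.25 to 5.38, and the Dusp5 to Dusp6 ratio fell from 5.03 to 3.31. In each of these 3 ratios the groups did not overlap, and the exact two-sided permutation p was 0.1, the smallest that 3 against 3 libraries allow, which was also the value adjusted over the 6 pairs computed.

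**Figure D2:**
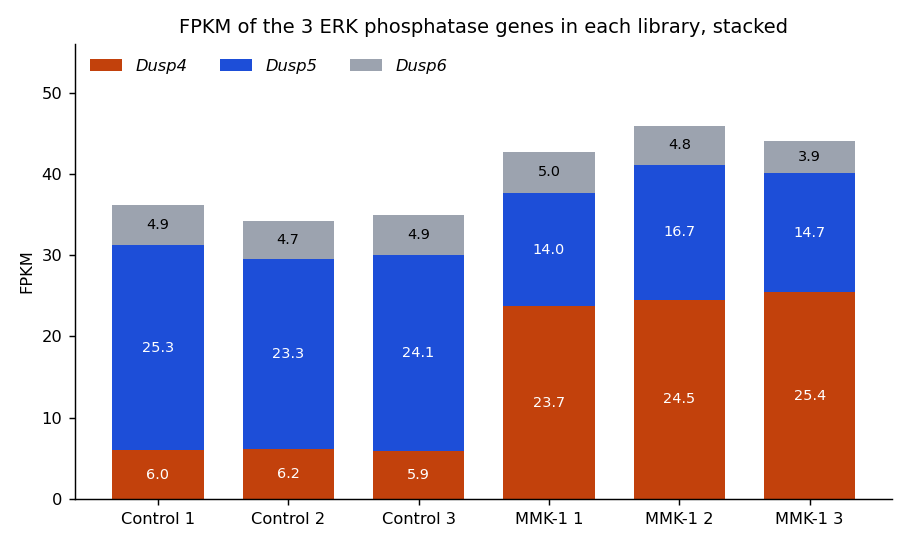
Stacked FPKM of Dusp4 (orange, bottom), Dusp5 (blue) and Dusp6 (grey, top) in each library, with each gene's FPKM printed in its segment. The Dusp5 segment is the largest in the 3 control libraries and the Dusp4 segment in the 3 MMK-1 libraries, while the total height differs by a ratio of 1.26 between group means.

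Of the Sprouty genes, whose products restrain receptor signaling to RAS and RAF, Spry1 was higher under MMK-1 (chr3:37639947-37644598, plus strand). Spry1 was measured at 2.08, 2.47 and 1.61 FPKM under vehicle and at 3.82, 3.57 and 4.98 FPKM under MMK-1. The groups were separate, although the libraries spread widely within both of them, by 2.90 and 3.52 times the SD from counting alone. This was a log2 fold change of 0.75 (SE 0.125, 95% CI 0.46 to 1.03; limma adjusted p = 6.2e-04), and the mean was 2.01-fold higher on the linear scale. MMK-1 replicate 3 was the highest library, and the log2 fold change without it was 0.63.

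Spry2 (chr14:105891947-105896819, minus strand) was not called. Its level was 2.98, 2.24 and 2.71 FPKM under vehicle and 2.83, 3.17 and 2.92 FPKM under MMK-1. The groups overlapped. The log2 fold change was 0.13 (SE 0.0812, 95% CI -0.06 to 0.31; limma adjusted p = 0.18). The ratio of Spry1 to Spry2 was 0.595 to 1.10 under vehicle and 1.13 to 1.71 under MMK-1. These ranges were separate by a narrow margin, with an exact permutation p and adjusted p of 0.1.

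Spry4 was close to absent. Control 1, 2 and 3 held 4, 0 and 2 fragments of it, and MMK-1 1, 2 and 3 held 12, 7 and 8. Summed over libraries these were 6 and 27 fragments, a rate ratio of 4.66 with an exact 95% interval of 1.88 to 13.8 that covers counting error only. At a mean of 0.0146 FPKM the gene was under the filter. In a fit of all 20676 detected genes without a filter, in which 28.1% were called higher, its log2 fold change was 0.03 with a limma adjusted p of 0.047, a size set by the added 1 FPKM.

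Spred1, which brings neurofibromin to RAS at the membrane, was upregulated (chr2:117121374-117182279, plus strand). Its level was 2.58, 2.50 and 2.74 FPKM under vehicle and 6.79, 6.89 and 5.44 FPKM under MMK-1. All MMK-1 libraries lay above the controls, with replicate 3 the lowest of them. Limma gave a log2 fold change of 1.03 (SE 0.0814, 95% CI 0.84 to 1.21; limma adjusted p = 6.3e-06), and the mean was 2.45-fold higher on the linear scale. The rise held in all 18 alternatives, but on the log2(FPKM + 1) scale it dropped below a fold change of 2 with upper-quartile scaling (0.96), median-ratio scaling (0.91), a GC correction (0.89) or a length correction (0.93), and without MMK-1 replicate 1 (0.98) or 2 (0.98).

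Spred2 (chr11:19924375-20024026, plus strand) had 0.708, 0.727 and 0.727 FPKM under vehicle and 1.07, 1.17 and 1.11 FPKM under MMK-1. The groups were separate and the libraries close together, with 1006 to 1036 fragments per control library and 1448 to 1593 per MMK-1 library. With a mean of 0.919 FPKM the gene fell just short of the filter. In the fit without a filter it was higher, by 0.30 on the log2 scale (SE 0.0351, limma adjusted p = 0.0011), and by 0.63 in limma-voom on fragments (adjusted p = 2.4e-06). Its low FPKM goes with a gene length of 37937 bases implied by the deposited values, whereas the exons of the gene in GENCODE cover 4619 bases. The ratio of Spred1 to Spred2 rose from 3.61 to 5.67, without overlap between the groups (exact permutation p = 0.1, adjusted p = 0.1).

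Both PEA3 factors were upregulated from low control levels. Etv4 (chr11:101769742-101785371, minus strand) was measured at 0.692, 0.826 and 0.735 FPKM under vehicle and at 3.12, 2.95 and 3.24 FPKM under MMK-1, from 117 to 140 and 479 to 543 fragments per library. The spread within both groups was near that from counting alone, at 1.03 and 1.04 times its SD. The change on the log2 scale was 1.23 (SE 0.0606, 95% CI 1.09 to 1.37; limma adjusted p = 3.7e-07), rank 170 from the largest rise. Its mean was 4.13-fold higher on the linear scale, close to the 4.07-fold of Dusp4, and limma-voom on fragments gave 2.05 for Etv4 on the log2 scale.

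Etv5 (chr16:22381309-22439719, minus strand) had 0.776, 1.02 and 1.20 FPKM under vehicle and 2.36, 2.25 and 2.61 FPKM under MMK-1. The groups were separate, and the control libraries spread by 2.87 times the SD from counting. This was a log2 fold change of 0.77 (SE 0.0863, 95% CI 0.58 to 0.97; limma adjusted p = 5.2e-05), with a mean 2.41-fold higher on the linear scale and a log2 fold change of 1.29 in limma-voom. The sum of both factors rose from 1.75 ± 0.246 to 5.51 ± 0.320 FPKM (SD, n = 3 each), a ratio of 3.15. By FPKM the order of the pair reversed, with Etv4 at 0.614 to 0.891 of Etv5 under vehicle and at 1.24 to 1.32 of it under MMK-1. The exact permutation p and adjusted p of this ratio were 0.1. Per GENCODE exon length, Etv4 was above Etv5 in Control 1 (1.01 against 0.931) and below it in Control 2 and Control 3. The order in controls thus depends on the length used.

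**Figure D3:**
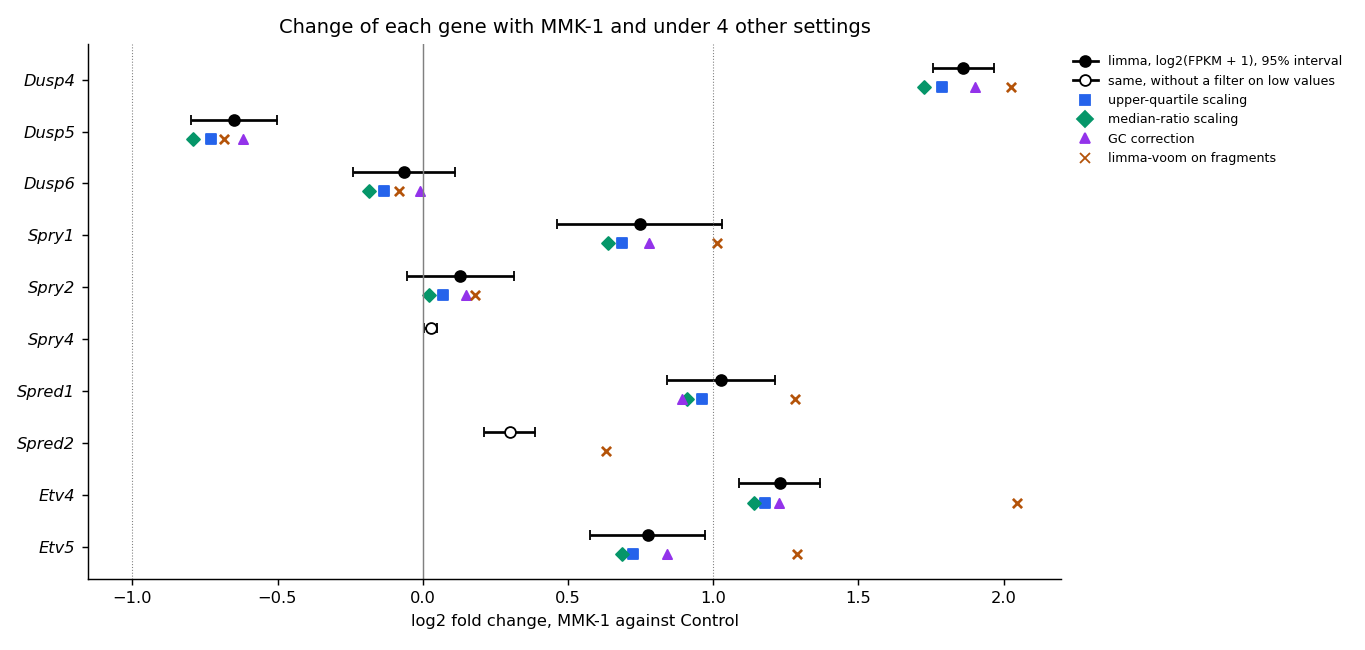
Log2 fold change of each gene, MMK-1 against Control (horizontal axis), with its 95% interval, from limma on log2(FPKM + 1); open circles mark Spry4 and Spred2 from the fit without a filter, and the coloured symbols mark 4 other settings. Dusp5 stays below 0 and Dusp4, Spry1, Spred1, Etv4 and Etv5 above 0 in each setting plotted, and limma-voom places Etv4 at 2.05 where the pseudocount of 1 FPKM gives 1.23.

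Levels between the members were compared per length. In controls the order of mean FPKM was Dusp5 (24.3), Dusp4 (6.03), Dusp6 (4.82), Spry2 (2.64), Spred1 (2.61), Spry1 (2.05), Etv5 (0.997), Etv4 (0.751), Spred2 (0.721) and Spry4 (0.00515). Neighbours whose library values overlapped were Spry2 with Spred1, Etv5 with Etv4, and Etv4 with Spred2. With MMK-1 the order was Dusp4 (24.5), Dusp5 (15.1), Spred1 (6.37), Dusp6 (4.59), Spry1 (4.12), Etv4 (3.10), Spry2 (2.97), Etv5 (2.41), Spred2 (1.12) and Spry4 (0.0240). Here Dusp6 overlapped with Spry1 and Etv4 with Spry2. The Sprouty genes summed to 4.70 ± 0.375 and 7.12 ± 0.691 FPKM and the SPRED genes to 3.33 ± 0.126 and 7.49 ± 0.818 FPKM (SD, n = 3 each), under vehicle and MMK-1 respectively. Part of the order of the members depends on the length used. Divided by the exon length of GENCODE instead of the implied length, Spred2 was at 5.92 under vehicle and 9.18 under MMK-1, above Spred1 at 2.71 and 6.64, and Dusp4 was at 12.9 and 52.5 against 17.8 and 11.1 for Dusp5. The Sprouty and SPRED sums rest on the implied lengths as well.

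Other genes of these families were read from a chosen list that does not hold every family member. The listed genes, given whether called or not, rose where they could be tested, as Dusp4 did. Of 12 listed genes in the table, 6 passed the filter and all 6 were higher (limma, adjusted p of 0.05 or less). Of all genes tested, 48.5% were. Dusp8, a phosphatase directed at JNK and p38, rose from 1.65 ± 0.0788 to 5.03 ± 0.470 FPKM (SD, n = 3 each), a log2 fold change of 1.18 (limma adjusted p = 8.6e-07). Dusp3 rose by 0.74, Dusp1 by 0.73, Dusp7 by 0.66, Dusp16 by 0.50 and Dusp14 by 0.19 on the log2 scale. Dusp14 was no longer called under upper-quartile scaling (0.12, limma adjusted p = 0.070) or median-ratio scaling (0.060, adjusted p = 0.31). DUSP1 is the immediate-early nuclear phosphatase of MAP kinases, and DUSP7 is, like DUSP6, a cytoplasmic phosphatase of ERK. Under the filter, Dusp9 had 15, 5 and 3 fragments under vehicle and 61, 49 and 74 under MMK-1. Etv1, the third PEA3 factor, had 124, 87 and 105 fragments under vehicle and 258, 254 and 135 under MMK-1, replicate 3 being close to the controls. Dusp10 had 47 to 53 fragments under vehicle and 55 to 61 under MMK-1, and Spred3 had 71 to 105 and 92 to 114. Dusp2 and Dusp22 had at most 8 fragments in any library.

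Other inhibitors of receptors and RAS were mostly higher. Of 14 tested, 10 were higher, 1 was lower and 3 were not called, with a median log2 fold change of 0.35, where 48.5% of all genes were called higher. Under upper-quartile scaling 9 were higher and under median-ratio scaling 8. Lrig1, a transmembrane inhibitor of EGF receptors that marks crypt stem cells, rose from 5.61 ± 0.0894 to 12.4 ± 0.296 FPKM (SD, n = 3 each), a log2 fold change of 1.02 (limma adjusted p = 1.7e-07). Il17rd, also known as Sef, rose by 0.75 and the RAS GTPase activator Rasa3 by 0.64. Lrig3, a relative of Lrig1, was the 1 gene called lower, at -0.32 (SE 0.0482, limma adjusted p = 3.3e-04).

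Among the genes of the ERK cascade itself, changes were smaller and went both ways. Where 48.5% of all genes were called higher and 24.7% lower, 15 of 23 tested were higher, 4 lower and 4 not called. Their median was 0.21. Under median-ratio scaling 8 were higher and 7 lower, and under upper-quartile scaling 12 and 4. None reached a fold change of 2 on the log2(FPKM + 1) scale. The ETS factor gene Elk1 rose by 0.76 (SE 0.0732) and the ERK-activated kinase gene Rps6ka3 by 0.64 (SE 0.121). Rps6ka3 was lower in MMK-1 replicate 3 than in the other MMK-1 libraries, with 2777 against 3954 and 3823 fragments, and without replicate 3 its value was 0.81. Elk1 and Egfr, with control means of 0.991 and 0.745 FPKM, passed the filter only through the MMK-1 group, so the count of 15 includes 2 genes selected in that way. The scaffold gene Ksr1 fell by 0.54, Araf by 0.44 and Mapk3, which encodes ERK1, by 0.31. The level of Mapk3 was 201 ± 5.55 FPKM under vehicle and 162 ± 5.89 FPKM under MMK-1 (SD, n = 3 each).

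Of 19 tested genes known to respond to ERK outside the members, 16 were higher, none was lower and 3 were not called. Over all genes 48.5% were higher and 24.7% lower, and the median of these 19 was 0.52. Under upper-quartile and median-ratio scaling 15 were higher and 1 was lower. Fos, an immediate-early AP-1 subunit, rose from 3.18 ± 0.155 to 14.9 ± 0.457 FPKM (SD, n = 3 each), a log2 fold change of 1.93 (limma adjusted p = 1.0e-08) close to that of Dusp4. The cyclin gene Ccnd1 rose by 1.51 and Areg, which encodes the EGF receptor ligand amphiregulin, by 1.04. Dusp1 is counted in this list as well. Of 11 tested genes of the JNK and p38 branch, 5 were higher, 2 were lower and 4 were not called. Their median was 0.07, below that of all genes, of which 48.5% were higher and 24.7% lower. This list mostly holds kinase genes, beside transcription factor genes such as Atf3 and Jun, and so differs in kind from the ERK-responsive genes. Its largest rises were Atf3 with 1.01, Jun with 0.87 and Mapk8 with 0.25, and Map2k3 at -0.37 and Mapk13 at -0.20 were the genes called lower. The split of this branch turned with the scaling, to 3 higher and 4 lower under upper-quartile scaling and to 2 higher (Atf3 and Jun) and 5 lower under median-ratio scaling. Mapk8 was not called under median-ratio scaling (0.12) or after GC correction (0.069). The difference between lists was not tested. Median-ratio scaling moved the median of the other ERK-responsive genes to 0.41, of the cascade to 0.081 and of the JNK and p38 branch to -0.019, and upper-quartile scaling moved them to 0.46, 0.14 and 0.022.

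**Figure D4:**
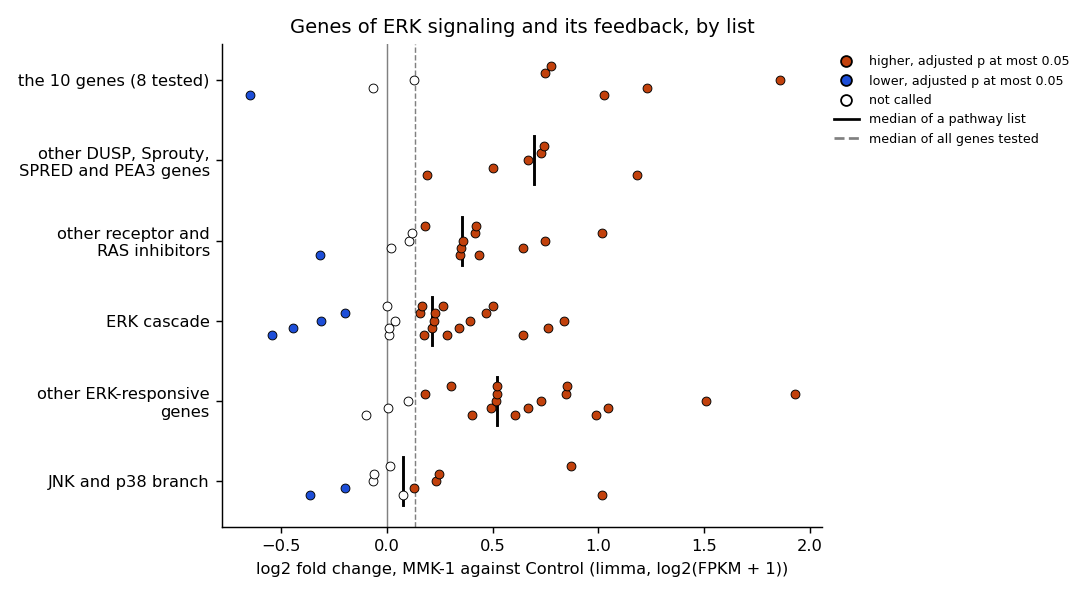
Log2 fold change (horizontal axis) of each tested gene of the members and of the 5 pathway lists, coloured by the limma call; black bars are medians of the 5 lists and the dashed line is the median of all genes tested, 0.13. Dusp5 is the lowest point of the top row at -0.65, and every tested relative in the second row lies to the right of 0.

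Markers of several intestinal cell types moved with treatment too, beside each of the results above. Over all genes tested, 48.5% were called higher and 24.7% lower, the shares to read beside each marker count below. Stem cell markers summed to 82.6 to 84.3 FPKM under vehicle and 409 to 436 FPKM under MMK-1, and 9 of 9 tested were higher. Paneth cell markers summed to 392 to 434 and 1280 to 1408 FPKM, with 7 of 7 higher, and cycling cell markers to 198 to 201 and 323 to 346 FPKM, with 8 of 8 higher. Defa26, a Paneth defensin with control and MMK-1 means of 0.345 and 4.53 FPKM, passed the filter only through the MMK-1 group, so its place in the count is no support. Enterocyte markers summed to 13263 to 13469 FPKM under vehicle and 9846 to 10615 FPKM under MMK-1, with 8 of 10 lower and 1 higher, and the general epithelial list to 3444 to 3475 and 2505 to 2709 FPKM, with 4 higher and 3 lower of 8. Goblet cell sums overlapped between groups, at 1377 to 1443 and 1404 to 1531 FPKM with 5 of 7 higher and 2 lower. Enteroendocrine sums were 257 to 272 and 320 to 345 FPKM, with 4 of 7 higher, and tuft cell sums 1.48 to 1.65 and 2.03 to 2.24 FPKM, with no gene past the filter.

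Markers of cells outside the epithelium were low. Immune markers summed to 5.38 to 6.19 FPKM under vehicle and 1.77 to 2.89 FPKM under MMK-1; both tested genes, Cd68 and Itgam, were lower, although Itgam, at 2.36 and 0.938 FPKM, passed the filter only through the controls, and Ptprc, which defines leukocytes, stayed at or below 0.0136 FPKM. Fibroblast sums were 0.0480 to 0.112 and 0.0912 to 0.147 FPKM, and endothelial sums 0.0697 to 0.200 and 0.0676 to 0.232 FPKM with Kdr at 0 in all 6 libraries. The part of the changed cell composition in the rise of Dusp4, Spry1, Spred1, Etv4 and Etv5 and in the fall of Dusp5 was not tested.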

How the data were processed

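RNA of 3 Control and 3 MMK-1 organoid libraries was extracted with Trizol, and libraries were made with the VAHTS V10 kit and read as pairs of 150 bases, according to the labels and the study's methods. The authors deposited FPKM values, that is fragments per gene divided by gene length and library total. The submitters' processing notes name mm10, HISAT2, HTSeq, R 3.2.0 and DESeq2 without giving their roles. No further scaling of the FPKM is stated. Sharing of fragments between paralogs by the counting is not described, nor is the use of strand.

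Whole fragments and library totals were recovered from the steps of the FPKM values. Implied lengths lay within 0.1 of a whole number for 100% of detected genes, and 99.7% of the fragments were on listed genes. FPKM is not a count, so the test was limma 3.58.1 with an intensity trend (R 4.3.3) on log2(FPKM + 1), restricted to 10551 genes whose mean reached 1 FPKM, two-sided, with Benjamini-Hochberg adjustment over all of them and no block. Calls were made at an adjusted p of 0.05 or less and also at a fold change of at least 2 with p of at most 0.05. limma-voom on the recovered fragments was an alternative, beside other scalings, filters and pseudocounts, GC and length corrections and the omission of each library. Permutation tests were exact. Scripts were tested on simulated data. Remaining steps used matplotlib 3.10.9, scipy 1.17.1, pandas 2.3.3 and numpy 2.4.6 in Python 3.11.15.

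Members, gene lists and tests were chosen with earlier results of these data known. Named were all members, the other listed family genes, and of each pathway list the 3 largest rises and 3 largest falls among called genes. Ptprc, Kdr, Defa26 and Egfr were added after their values were seen. Not every gene this rule names is reported here. Of marker lists at most 3 genes by level were named otherwise. Coordinates and exon lengths are from GENCODE vM21 and upstream sequences from RefSeq.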

Additional observations from a re-analysis of the deposited data

How the results depend on the processing

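Under 18 alternatives each, the 6 called members kept their direction and their call, and Dusp6 and Spry2 stayed uncalled, with log2 fold changes of 1.73 to 2.02 for Dusp4, -0.79 to -0.56 for Dusp5, 0.63 to 1.01 for Spry1, 0.89 to 1.28 for Spred1, 1.14 to 2.05 for Etv4 and 0.68 to 1.29 for Etv5. The uncalled genes ranged from -0.19 to 0.02 for Dusp6, which was above 0 without MMK-1 replicate 3, and from 0.02 to 0.20 for Spry2. Omitting each library in turn left 5 members higher and 1 lower, and 2 to 3 members higher at a fold change of at least 2.

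The count of members at a fold change of at least 2 upward was 3, and 5 with limma-voom on fragments or with a fold change of at least 1.5, where 1 was also lower. It was 2 with upper-quartile or median-ratio scaling and with GC or length correction. Of the genes of the pathway lists, 51 were higher and 7 lower at the adjusted p, 37 and 14 with median-ratio scaling and 43 and 10 with upper-quartile scaling. At a fold change of at least 2, 6 list genes were higher, 3 with upper-quartile or median-ratio scaling, 10 with a pseudocount of 0.1, 12 with that pseudocount and no filter, 14 with limma-voom and 20 at a fold change of 1.5. Over all genes the upward count of 358 became 230 with median-ratio scaling, 558 with TPM, 676 with a pseudocount of 0.1, 1097 with that pseudocount and no filter, 1387 with limma-voom and 1502 at a fold change of 1.5, and the downward count of 385 became 818, 899 and 855 under the last 3 of these. Mapk14, higher by 0.13, was at -0.011 (limma adjusted p = 0.82) with median-ratio scaling. The cause was not tested beyond what each setting changes by its construction.

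Libraries with the same replicate number did not deviate together (r of 0.03, -0.04 and 0.03 across genes), so the numbers were not taken as pairs. A replicate block left the members at 5 higher and 1 lower and all genes at 5024 higher and 2543 lower. The alternatives with no filter and a pseudocount of 0.1 and with GC correction and block together, the CArG search and the levels per GENCODE length were chosen after seeing the data. Ratios with Spry4 had no value because Control 2 held no fragment of it, which allows up to 3.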
